A study of Rattus norvegicus with 16 samples.

Results

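Genes of cholesterol, fatty acid and myelin lipid synthesis were followed in rat Schwann cells and sciatic nerve after crush injury. The list holds 37 genes, named for their place in these pathways and chosen with earlier results of these data known, among 31038 genes in the count tables. All 37 were present, and all 37 passed the filter on low counts in each fit. They fall into 7 genes of the mevalonate branch, 12 genes of the squalene and sterol branch, 4 regulators of the SREBP pathway, 5 genes of acetyl-CoA supply and fatty acid synthesis, 6 genes of fatty acid elongation and desaturation, and 3 genes of the galactolipids of myelin.

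RNA was sequenced from 16 libraries in 8 groups of 2. Purified Schwann cells and whole nerve were each taken from uncrushed nerves and from the left sciatic nerve 3, 5 and 7 days after a forceps crush of the mid-thigh in rats of postnatal day 18, and the labels give that age for all 16 libraries. Whether uncrushed rats were matched in age at collection to rats of the later days is not given in the sources used here. Uncrushed nerves had no sham operation, so surgery and crush cannot be told apart. Only the segment distal to the crush, or its equivalent in uncrushed nerves, was used. Schwann cells were enzymatically dissociated, cleared of myelin debris, depleted of cells bearing CD45 (leukocytes) or Thy1 (fibroblasts and other cells) and caught on a dish coated with antibody to O4. This antibody binds sulfatide, the lipid that Gal3st1 of the list makes, so the purified cells were chosen by a product of the galactolipid genes, and the part of this in the levels was not tested. Whole nerve RNA came from tissue that was not dissociated, so kind of sample and dissociation cannot be told apart within these 16 libraries, and dissociated nerve without panning, which the study also describes, was not analysed here. Each library pools at least 10 nerves, and the labels do not say whether the 2 libraries of a group came from separate sets of animals, so the p-values measure the spread between these libraries.

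Cholesterol is built from acetyl-CoA through mevalonate, farnesyl diphosphate and squalene to lanosterol, which is then trimmed and reduced. SREBP-2, encoded by Srebf2, and SREBP-1, encoded by Srebf1, are membrane-bound transcription factors that the escort protein Scap carries to the Golgi for cleavage, while Insig1 holds Scap back in the endoplasmic reticulum when sterols are plentiful. A myelinating Schwann cell makes most of the cholesterol of its sheath itself, and it adds very long chain and hydroxylated fatty acids to the galactolipids cerebroside and sulfatide, which are typical of myelin.

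The libraries held 10555067 to 27562637 counts. Defining Schwann cell markers were present in both kinds of sample, with Sox10 at 149 to 234 CPM (counts scaled to the size of the library) in Schwann cell libraries and 68.7 to 133 CPM in whole nerve. Whole nerve carried more RNA of other cells: the summed level of 5 macrophage markers was 90.1 to 378 CPM against 2.13 to 13.4 CPM in Schwann cells, that of 4 fibroblast markers 12237 to 17567 CPM against 781 to 1701 CPM, and that of 6 adipocyte markers 429 to 1211 CPM against 25.8 to 36.2 CPM. The second Schwann cell library of day 3 held more RNA of other cells than the first, with Ptprc, which encodes CD45, at 0.814 and 5.84 CPM, 4 endothelial markers at a sum of 1.88 and 10.4 CPM, 3 pericyte and smooth muscle markers at 6.58 and 12.8 CPM and the fibroblast gene Dcn at 9.71 and 26.5 CPM, although the 4 fibroblast markers summed to 1039 to 1056 CPM in both, nearly all of it Col1a1. The second uncrushed whole nerve library held skeletal muscle RNA (Ckm 7.57 and 121 CPM). In bulk RNA, fewer cells of a type and less RNA per cell cannot be told apart.

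Levels in single libraries are CPM scaled by TMM (a normalization that assumes most genes do not change). Changes are log2 fold changes with their standard error (SE) from the quasi-likelihood test of edgeR, and a gene is called at a Benjamini-Hochberg adjusted p below 0.05 over all genes tested. Values given as ± after a gene are log2 fold changes with their SE.

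The promoters of the list were read first, because most of its members fell. RefSeq promoters of assembly GRCr8 were matched for 31 of the 37 members (Pmvk, Fdft1, Sqle, Acaca, Fasn and Elovl6 had no entry), and the 250 bases before the gene start were searched on both strands. The sterol regulatory element, the binding site of SREBP, was searched as TCACNCCAC, which was found in 0 of 31 members and in 0.976% of 27457 promoters, and as the shorter CACNCCAC, which was found in 5 members (16.1%) and in 4.84% of promoters. All matches to the longer form are also matches to the shorter one. Elements with other letters, or outside these 250 bases, were not searched. A promoter without a match may therefore still hold a site of SREBP. The NF-Y box CCAAT, bound by a factor that works beside SREBP at sterol genes, was found in 22 members (71%) and in 34.3% of promoters. The GC box GGGCGG, a site of Sp1, was in 24 members (77.4%) and in 32.4% of promoters, and the E box CACGTG was in 4 members (12.9%) and in 5.79% of promoters. Among the promoters of protein-coding genes only, 19005 in all, CACNCCAC was in 4.79%, CCAAT in 35.5%, GGGCGG in 40.3% and CACGTG in 6.38%.

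Windows around the matches are shown for the members on which the later results turn, each 5′ to 3′ on the strand of the gene, with CCAAT or CACNCCAC (or the same motif read from the other strand) in capitals. Hmgcs1 (chr2:53382106-53382185, plus strand) and Idi1 (chr17:66547545-66547600, minus strand) are mevalonate genes that fell. Tm7sf2 (chr1:212789616-212789640, minus strand) and Lbr (chr13:96095719-96095783, minus strand) encode enzymes of the same sterol step with different courses. Insig1 (chr4:8057948-8058010, minus strand) and Fads1 (chr1:216252544-216252585, plus strand) both hold the SRE-like motif, and the first fell while the second rose. Fa2h (chr19:56273541-56273610, minus strand) led the galactolipid genes.
Hmgcs1: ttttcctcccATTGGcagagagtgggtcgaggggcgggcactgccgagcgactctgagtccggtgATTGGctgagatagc
Idi1: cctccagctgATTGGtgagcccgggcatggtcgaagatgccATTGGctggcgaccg
Tm7sf2: cccagcgttgATTGGctactgtgct
Lbr: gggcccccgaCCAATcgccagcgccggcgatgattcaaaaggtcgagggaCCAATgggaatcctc
Insig1: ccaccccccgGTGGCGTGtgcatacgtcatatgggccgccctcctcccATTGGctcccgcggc
Fads1: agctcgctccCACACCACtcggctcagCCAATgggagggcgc
Fa2h: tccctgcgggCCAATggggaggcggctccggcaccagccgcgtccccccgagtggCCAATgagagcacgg

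Members with and without an NF-Y box both fell for the most part. Of the 22 members with a box, 19 fell in Schwann cells at day 3, and of the 9 members without one, 6 fell, while 25.7% of all genes tested were called lower. Fads1, Lbr and Elovl5 hold a box and were not called lower at that day. A match is a string of letters, and binding was not measured.

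**Figure D1:**
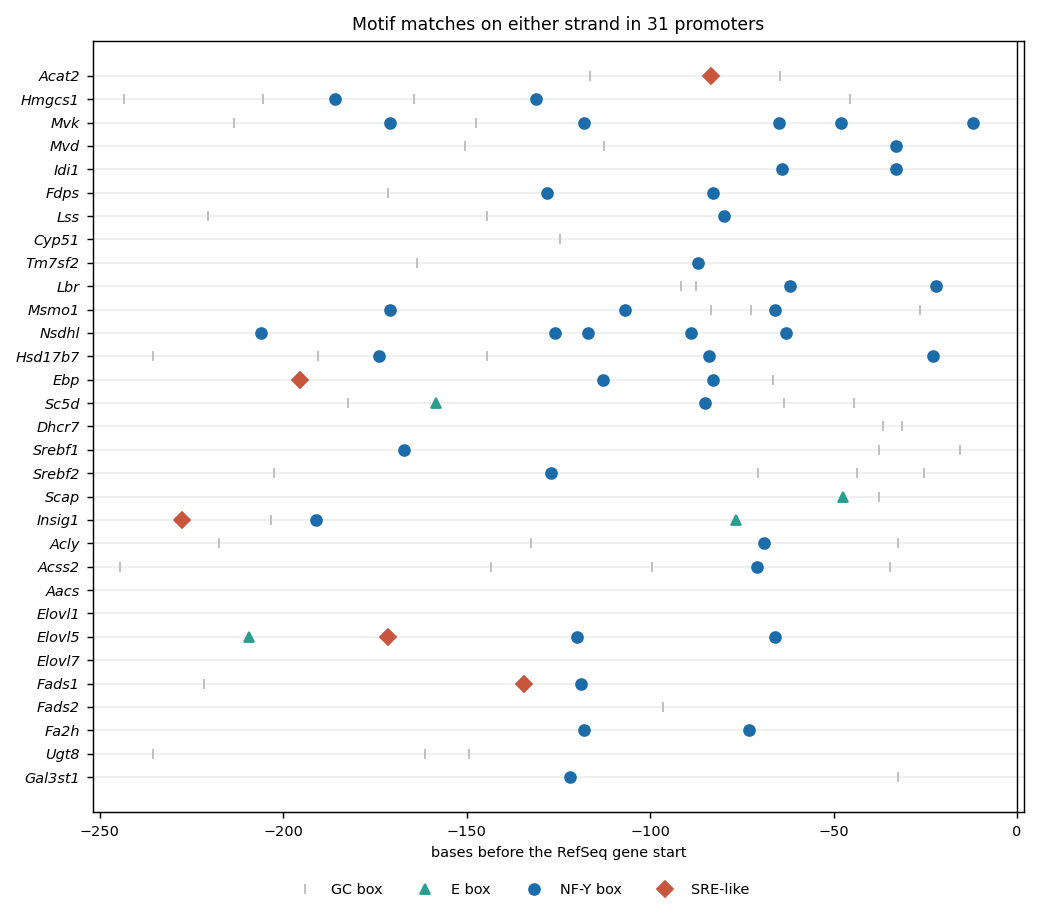
Positions of motif matches in the 250 bases before the RefSeq gene start, on either strand, for the 31 members with a promoter entry. The x axis gives bases before the start and each row is 1 gene; the NF-Y box was found in 22 members and the SRE-like motif CACNCCAC in 5.

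In Schwann cells most of the list fell by day 3 and was still lower at day 7. The summed level of the 37 members was 8748 and 8831 CPM in the 2 uncrushed libraries, 2734 and 2768 CPM at day 3, 3067 and 2951 CPM at day 5, and 3348 and 3188 CPM at day 7. At day 3, 31 members were lower, 3 were higher and 3 were not called, while 25.7% of all 14961 genes tested were called lower and 26.9% higher. At day 5, 29 were lower and 3 higher (all genes 25.6% and 29%), and at day 7, 29 were lower and 4 higher (all genes 21.9% and 25%). The median log2 fold change of the members was -1.94, -1.93 and -1.67 at the 3 days, beside medians of 0.00, 0.06 and 0.06 over all genes. In 29 members all 6 libraries of crushed nerve lay below both uncrushed libraries, which held for 26% of 16829 genes, and in 3 members (Scap, Fads1 and Fads2) all 6 lay above, which held for 24.8%. Without the second library of day 3, 31 members were called at that day in place of 34, and 37.8% of all genes in place of 52.5%.

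**Figure D2:**
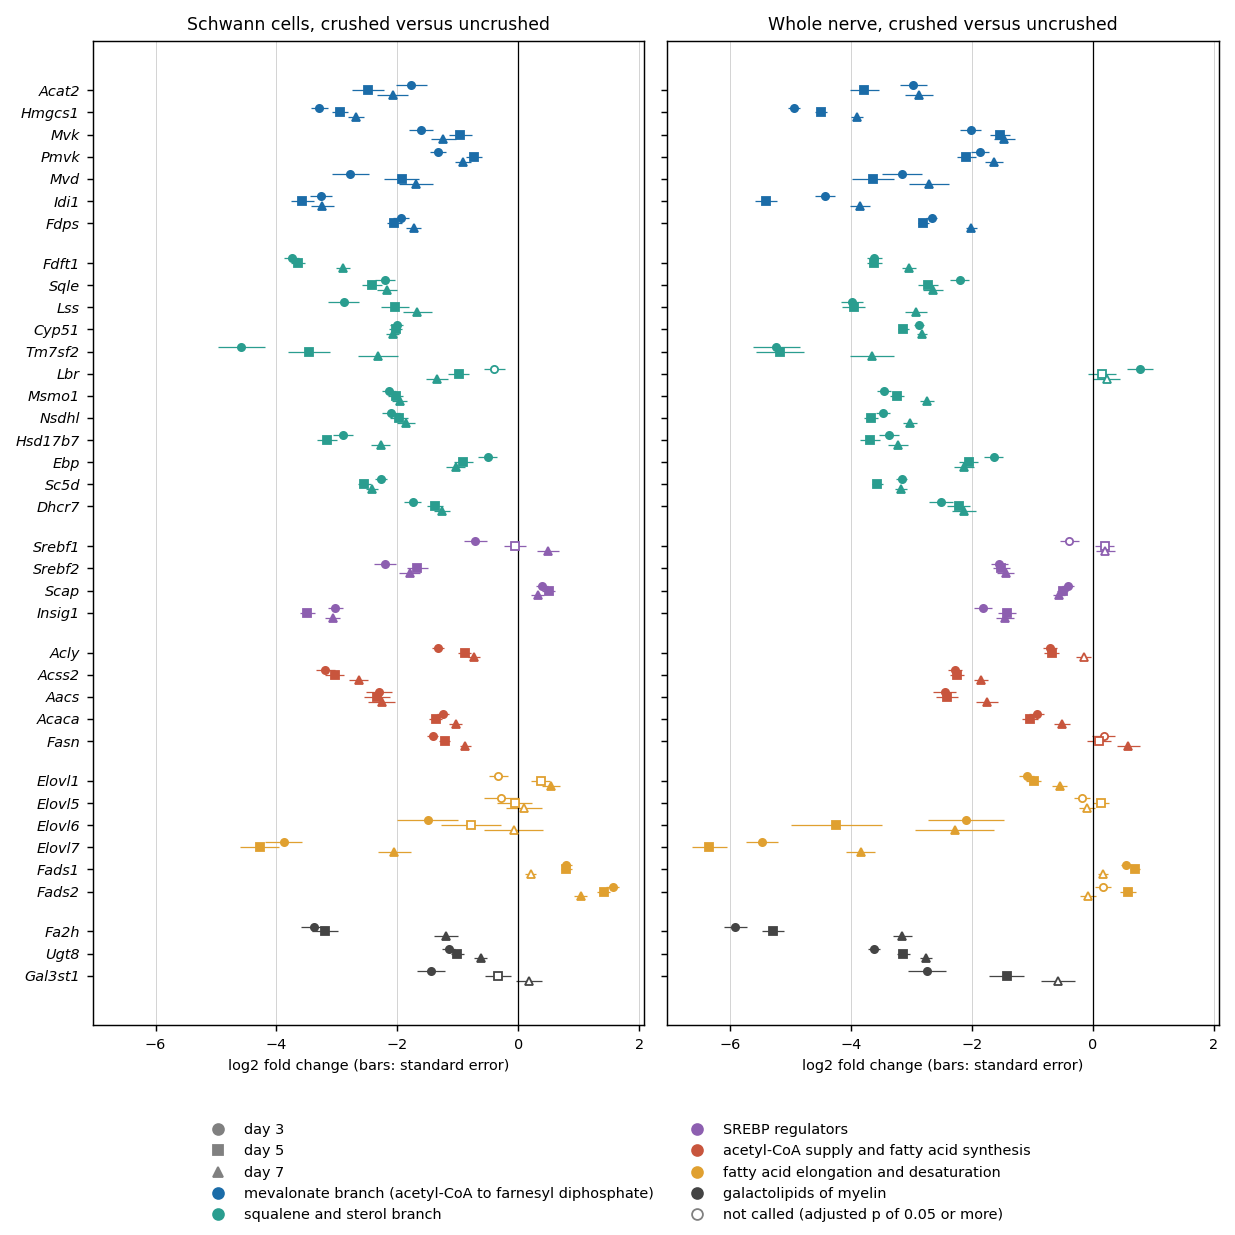
Log2 fold change of each of the 37 members against uncrushed samples at days 3 (circles), 5 (squares) and 7 (triangles), in Schwann cells (left) and whole nerve (right), with standard errors and colours for the 6 roles. Open symbols were not called; most points lie left of 0, and in Schwann cells at day 3 Scap, Fads1 and Fads2 were called to its right.

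All 7 genes of the mevalonate branch were lower at each of the 3 days. Hmgcs1, the synthase that makes HMG-CoA and the member with the lowest p of this branch, stood at 2609 and 2403 CPM in uncrushed Schwann cells, 221 and 279 CPM at day 3, 296 and 339 CPM at day 5 and 383 and 386 CPM at day 7. The crushed libraries did not overlap the uncrushed ones. The change at day 3 was -3.29 ± 0.14 SE, adjusted p = 1.15e-07, or 9.77-fold lower. Idi1, the isomerase that interconverts the isoprene units, fell nearly as far, from 185 and 242 CPM to 20.5 and 22.9 CPM at day 3 (-3.26 ± 0.18) and 25.4 and 18.9 CPM at day 7 (-3.24 ± 0.18). Mvd, the decarboxylase, changed by -2.78 ± 0.30 at day 3, and Fdps, which makes farnesyl diphosphate, by -1.94 ± 0.13. Acat2 (acetoacetyl-CoA formation), Mvk and Pmvk (the mevalonate kinases) fell by 1.77, 1.61 and 1.33 on the log2 scale. The smallest fall of the branch was that of Pmvk at day 5, -0.73 ± 0.13.

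Of the 12 genes of the squalene and sterol branch, 11 were lower at day 3 and 12 at days 5 and 7. Fdft1, which makes squalene, had the lowest adjusted p of the whole list: 309 and 345 CPM in uncrushed Schwann cells, 24.3 and 23.1 CPM at day 3, 25.5 and 26.0 CPM at day 5 and 46.4 and 39.8 CPM at day 7. Its change at day 3 was -3.75 ± 0.12 SE, adjusted p = 4.97e-08, 13.5-fold lower. Sqle, the epoxidase that acts next, changed less, by -2.20 ± 0.16, and Lss, which closes the ring to lanosterol, by -2.89 ± 0.25. Among the enzymes that demethylate lanosterol, Cyp51 changed by -2.01 ± 0.10, Msmo1 by -2.14 ± 0.12, Nsdhl by -2.11 ± 0.15 and Hsd17b7, the furthest of these 4, by -2.90 ± 0.16. Msmo1, the sterol methyl oxidase, went from 249.9 and 308 CPM to 61.2 and 62.7 CPM at day 3 and 66.9 and 74.5 CPM at day 7. Of the later steps, Sc5d (the desaturase) changed by -2.27 ± 0.10, Dhcr7 (the last reductase of one arm) by -1.75 ± 0.13 and Ebp (the isomerase) by -0.51 ± 0.15 at day 3. The call of Ebp at day 3 was lost without either library of day 3 (adjusted p = 0.0531 and 0.111) and without the second uncrushed library (adjusted p = 0.0593).

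The sterol C14 reductase step is served by Tm7sf2 and Lbr, the latter also a receptor for lamin B in the nuclear membrane, and these 2 genes took different courses. Tm7sf2 stood at 7.02 and 8.27 CPM in uncrushed Schwann cells, 0.376 and 0.255 CPM at day 3, 0.775 and 0.569 CPM at day 5 and 1.49 and 1.52 CPM at day 7. It had the largest fall of the 37 members at day 3, -4.58 ± 0.39 SE, adjusted p = 7.97e-06, and the values rest on few reads, with a lowest estimated count of 6 in any of the 16 libraries. Lbr stood at 18.9 and 16.9 CPM, then 12.8 and 13.6 CPM, 7.85 and 9.90 CPM and 6.12 and 7.91 CPM. Its change was not called at day 3 (-0.40 ± 0.17 SE, adjusted p = 0.077) and was -0.99 ± 0.18 at day 5 and -1.34 ± 0.18 at day 7. From day 3 to day 7, Tm7sf2 rose (2.27 ± 0.41 SE, adjusted p = 0.00391) while Lbr fell (-0.94 ± 0.18 SE, adjusted p = 0.00594). The fall of Lbr between these days was not called without the first library of day 7 (adjusted p = 0.0619).

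The 4 regulators did not move alike. Insig1, itself a target of SREBP, stood at 567 and 506 CPM in uncrushed Schwann cells and 64.0 and 64.2 CPM at day 3, 43.8 and 50.2 CPM at day 5 and 57.8 and 68.2 CPM at day 7. The fall at day 3 was -3.03 ± 0.12 SE, adjusted p = 1.03e-07, 8.17-fold lower. Srebf2 stood at 121 and 112 CPM and fell to 21.2 and 28.1 CPM at day 3, a change of -2.20 ± 0.18 SE, adjusted p = 6.73e-06, and it was lower at day 7 too (-1.80 ± 0.18). Srebf1 took another course, with 12 and 16.1 CPM in uncrushed cells, 7.77 and 8.83 CPM at day 3, 12.7 and 14.0 CPM at day 5 and 17.6 and 21.1 CPM at day 7. It was called lower at day 3 (-0.71 ± 0.19 SE, adjusted p = 0.00944) and higher at day 7 (0.49 ± 0.18 SE, adjusted p = 0.0489), and the rise from day 3 to day 7 was 1.20 ± 0.18 SE, adjusted p = 0.00155. The call against uncrushed at day 7 was lost without the first uncrushed library (adjusted p = 0.25), without the second library of day 7 (adjusted p = 0.223) and in DESeq2 (adjusted p = 0.148), and the call at day 3 was lost without the second uncrushed library (adjusted p = 0.0511) and without the first of day 3 (adjusted p = 0.0513). Scap stood at 42.0 and 42.7 CPM in uncrushed cells, 52.7 and 55.4 CPM at day 3, 54.8 and 63.1 CPM at day 5 and 51.3 and 52.9 CPM at day 7, so that all 6 crushed libraries lay above both uncrushed ones. Its changes were small, 0.39 ± 0.11 SE, adjusted p = 0.0124 at day 3, 0.50 ± 0.11 at day 5 and 0.32 ± 0.11 at day 7, and the call at day 3 was lost without either library of that day (adjusted p = 0.0549 and 0.0836). At day 7 the call of Scap was lost without any 1 of the 4 libraries compared (adjusted p = 0.0763 to 0.116).

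All 5 genes of acetyl-CoA supply and fatty acid synthesis were lower in Schwann cells at all 3 days. Acss2, which makes acetyl-CoA from acetate, led this group with 94.1 and 91.2 CPM in uncrushed cells, 9.65 and 10.1 CPM at day 3, 11.2 and 11 CPM at day 5 and 17.0 and 11.9 CPM at day 7 (day 3: -3.19 ± 0.16 SE, adjusted p = 2.82e-07). Acly, which makes acetyl-CoA from citrate and was the more abundant by CPM, fell less, from 502 and 533 CPM to 213 and 189 CPM (-1.33 ± 0.10). Aacs, which activates acetoacetate, changed by -2.30 ± 0.22. The carboxylase Acaca, which commits acetyl-CoA to fatty acids, and the fatty acid synthase Fasn fell by 1.25 and 1.42 on the log2 scale at day 3. Fasn stood at 183 and 192 CPM in uncrushed cells, 68.7 and 67.8 CPM at day 3, 76.0 and 82.1 CPM at day 5 and 103 and 97.5 CPM at day 7, so that its libraries did not overlap, and it was still lower at day 7 (-0.88 ± 0.09 SE, adjusted p = 5.73e-05).

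Of the 6 genes of elongation and desaturation, 2 were lower, 2 higher and 2 not called at day 3, which is 33.3% in each direction and near the 25.7% and 26.9% of all genes. Fads2 and Fads1, which desaturate polyunsaturated fatty acids at the delta-6 and delta-5 positions and are adjacent protein-coding genes in the rat annotation, rose. Fads2 went from 79.0 and 86.1 CPM to 231 and 245 CPM at day 3, 218 and 212 CPM at day 5 and 155 and 176 CPM at day 7, a change of 1.56 ± 0.11 SE, adjusted p = 1.91e-06, 2.95-fold higher, at day 3. Fads1 went from 284 and 278 CPM to 467 and 483 CPM at day 3, 479.8 and 476 CPM at day 5 and 306 and 328 CPM at day 7. It was higher at days 3 and 5 (0.79 ± 0.09 and 0.79 ± 0.09), and at day 7 the difference was not called (0.20 ± 0.09 SE, adjusted p = 0.0969).

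Of the 4 elongases, Elovl7 and Elovl6 were called lower at day 3 and Elovl1 and Elovl5 were not called. Elovl7 fell the furthest, from 19.3 and 24.7 CPM to 1.00 and 1.79 CPM at day 3 (-3.88 ± 0.31 SE, adjusted p = 5.48e-06) and 1.40 and 0.796 CPM at day 5, and stood at 5.64 and 4.79 CPM at day 7. Elovl1, which makes the very long chains of sphingolipids, was not called at day 3 (-0.33 ± 0.15 SE, adjusted p = 0.103) and was higher at day 7 (0.54 ± 0.15 SE, adjusted p = 0.0172), with 107 and 101 CPM in uncrushed cells and 152 and 147 CPM at day 7. That call was lost without the second uncrushed library (adjusted p = 0.0684) and without either library of day 7 (adjusted p = 0.0706 and 0.0528). Elovl5, which elongates polyunsaturated chains, was not called at any day, and its uncrushed libraries stood apart, at 64.2 and 149 CPM beside 84.6 to 119 CPM in the 6 crushed libraries. Without the first uncrushed library the change of Elovl5 at day 3 was -0.76 (adjusted p = 4.93e-04), and without the second it was 0.42 (adjusted p = 0.0171), so that 1 library decides its direction. Elovl6, the elongase of saturated chains, had a noisy fall at day 3 (-1.50 ± 0.51 SE, adjusted p = 0.0312) that was lost without any 1 of the 4 libraries (adjusted p = 0.0552 to 0.105).

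The 3 galactolipid genes fell at day 3 and climbed again by day 7. Fa2h, which hydroxylates the fatty acid of galactolipids, stood at 76.2 and 92.9 CPM in uncrushed Schwann cells, 8.89 and 7.15 CPM at day 3, 10.4 and 7.51 CPM at day 5 and 42.6 and 30.1 CPM at day 7. The change was -3.38 ± 0.22 SE, adjusted p = 1.61e-06 at day 3 and -1.19 ± 0.20 at day 7. Ugt8, which adds galactose to ceramide, fell less, from 1325 and 1349.6 CPM to 618 and 561 CPM at day 3 (-1.15 ± 0.11 SE, adjusted p = 1.81e-05), and stood at 918 and 796 CPM at day 7. Gal3st1, the sulfotransferase that makes sulfatide, stood at 6.95 and 8.91 CPM, then 3.01 and 2.7 CPM at day 3, 5.27 and 7.00 CPM at day 5 and 9.25 and 8.21 CPM at day 7. It was lower at day 3 (-1.44 ± 0.23 SE, adjusted p = 6.02e-04) and was not called at day 5 (-0.34 ± 0.22) or day 7 (0.17 ± 0.22).

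**Figure D3:**
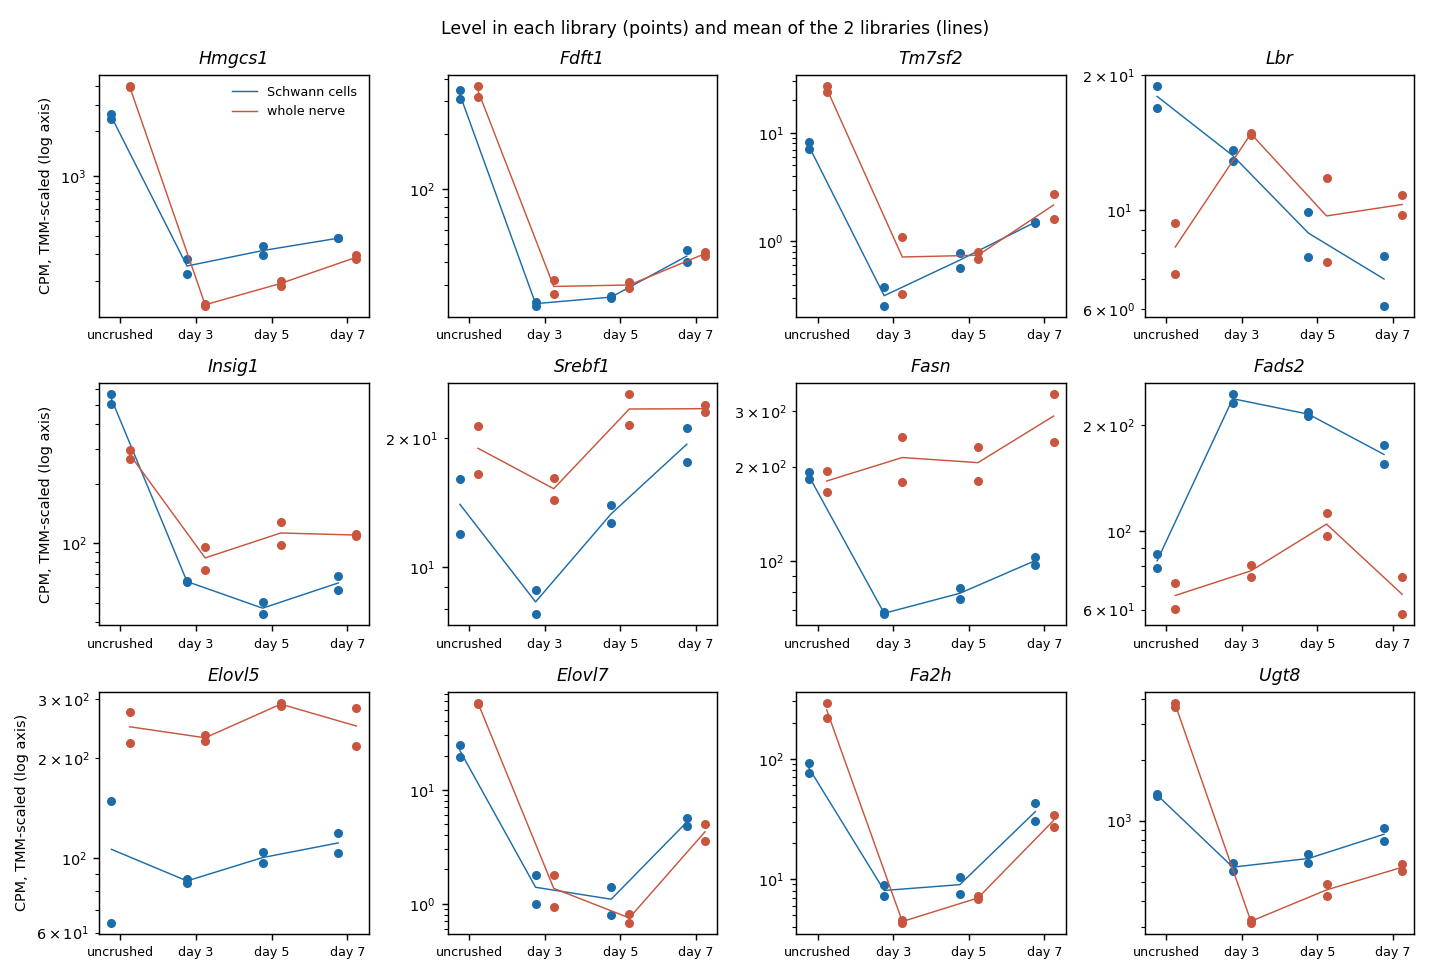
Levels of 12 members in each of the 16 libraries, in TMM-scaled CPM on a log axis, with Schwann cells in blue and whole nerve in red; points are libraries and lines join the means of 2. In Schwann cells Hmgcs1, Fdft1 and Insig1 stay below their uncrushed libraries to day 7, Fa2h and Elovl7 climb at day 7, and Fasn is lower at all 3 days, while in whole nerve Fasn is not.

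The course between the crushed days was tested directly. In Schwann cells 5 members were higher and 1 lower at day 5 than at day 3, beside 6.09% and 6.36% of all genes, and 4 were higher and 1 lower at day 7 than at day 5, beside 1.18% and 0.769% (176 and 115 genes, or 204 and 82 with upper quartile scaling). The 6 members between days 3 and 5 were Gal3st1 (1.10 ± 0.23), Elovl1 (0.70 ± 0.15), Srebf1 (0.67 ± 0.18), Pmvk (0.60 ± 0.13) and Acly (0.44 ± 0.10), which rose, and Insig1 (-0.46 ± 0.12), which fell. Without either library of day 3 none of the 37 was called between these days, without the first library of day 5 the count was 1, and without the second it was 3, while the share of all genes called in either direction went from 12.5% to between 3.46% and 4.69%. Between days 5 and 7 Elovl7 (2.23 ± 0.33), Fa2h (2.02 ± 0.22), Hsd17b7 (0.89 ± 0.17) and Fdft1 (0.74 ± 0.11) rose and Fads1 (-0.59 ± 0.09) fell, and the count of 5 became 2 without the first library of day 5, 1 without the second, and 1 without the first library of day 7, while the share of all genes went from 1.95% to between 0.197% and 0.364%.

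From day 3 to day 7, 16 members were higher and 4 lower, beside 10.2% and 10.7% of all genes. The 3 galactolipid genes were all among the 16, with Fa2h at 2.19 ± 0.22 SE, adjusted p = 1.58e-04, Gal3st1 at 1.61 ± 0.23 and Ugt8 at 0.53 ± 0.11. Sterol genes with a rise were Tm7sf2, Lss (1.21 ± 0.26), Fdft1 (0.85 ± 0.11), Hsd17b7 (0.62 ± 0.16) and Dhcr7 (0.49 ± 0.14), and mevalonate genes with a rise were Mvd (1.09 ± 0.31) and Hmgcs1 (0.61 ± 0.13). The others that rose were Srebf1, Acly (0.60 ± 0.10), Acss2 (0.55 ± 0.16), Fasn (0.55 ± 0.09), Elovl1 (0.87 ± 0.15) and Elovl7 (1.83 ± 0.32). The 4 that fell were Fads1 (-0.59 ± 0.09), Fads2 (-0.54 ± 0.10), Lbr and Ebp (-0.52 ± 0.16). Idi1, Sqle and Insig1 differed by 0.02, 0.03 and -0.04 between the days and were not called. The count of 20 called members became 12 without the second library of day 3 and 11 without the first library of day 7, while the share of all genes called went from 21% to 9.81% and 10.2%. Fa2h, Gal3st1, Tm7sf2, Fdft1, Srebf1, Acly, Fasn, Elovl1, Elovl7 and Fads1 were called whichever of the 4 libraries was left out, and each of the others lost its call without at least 1 of them (adjusted p = 0.0548 to 0.311).

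In whole nerve the same list was also mostly lower, and its summed level went further down, from 13095 and 13837 CPM in uncrushed nerve to 2268 and 2112 CPM at day 3 and 2855 and 3092 CPM at day 7. At day 3, 31 members were lower and 2 higher, beside 22.5% and 23.1% of 15831 genes tested, at day 5, 31 were lower and 2 higher, beside 19.5% and 18.9%, and at day 7, 29 were lower and 1 higher, beside 15.9% and 15.4%. The median log2 fold change of the members was -2.45, -2.41 and -2.13, and the medians of all genes were 0.00, -0.01 and 0.02. All 6 crushed libraries lay below both uncrushed ones in 30 members (17.4% of all genes) and above both in 1, Fads1 (25.4% of all genes).

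The largest falls in whole nerve at day 3 were those of Fa2h, from 216 and 293 CPM to 4.53 and 4.32 CPM (-5.91 ± 0.19 SE, adjusted p = 9.12e-09), Elovl7 (-5.47 ± 0.26), Tm7sf2 (-5.23 ± 0.40) and Hmgcs1, from 3978 and 4053 CPM to 139.5 and 136 CPM (-4.94 ± 0.10 SE, adjusted p = 9.03e-10). Ugt8 went from 3648 and 3824 CPM to 324 and 313 CPM (-3.62 ± 0.10 SE, adjusted p = 3.87e-09). Lbr was higher at day 3, against the rest of its role, with 14.7 and 14.9 CPM beside 7.18 and 9.35 CPM in uncrushed nerve (0.78 ± 0.22 SE, adjusted p = 0.0153), and this call was lost without the first uncrushed library (adjusted p = 0.11) and without either library of day 3 (adjusted p = 0.0533 and 0.0647). Fads1 was higher at day 3 (0.55 ± 0.09) and day 5 (0.70 ± 0.09), and Fads2 at day 5 (0.58 ± 0.14 SE, adjusted p = 0.00728). The call of Fads2 was lost without the first uncrushed library (adjusted p = 0.0552) and without the second library of day 5 (adjusted p = 0.0613). Scap was lower at all 3 days (-0.41 ± 0.10, -0.50 ± 0.10 and -0.56 ± 0.10), at day 3 not without the first library of that day (adjusted p = 0.056), and Srebf1 was not called at any of them (-0.39 ± 0.16, 0.20 ± 0.16 and 0.21 ± 0.16). Macrophage markers summed to 103 and 90.1 CPM in uncrushed nerve and to 364 and 378 CPM at day 3, and their part in these changes was not tested.

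From day 3 to day 7 in whole nerve 19 members were higher and 1, Fads1, was lower, beside 9.85% and 11.4% of all genes. Fa2h led again (2.77 ± 0.18 SE, adjusted p = 8.02e-06), with Gal3st1 (2.18 ± 0.31), Elovl7 (1.63 ± 0.28), Tm7sf2 (1.59 ± 0.45) and Hmgcs1 (1.03 ± 0.08). Tm7sf2 lost its call without the second library of day 3 (adjusted p = 0.167) and without the first of day 7 (adjusted p = 0.2), and Fads1 lost it without either library of day 3 or the first of day 7 (adjusted p = 0.0648 to 0.0694). The count of 20 called members became 8 without the second library of day 3, 13 without the first library of day 3 and 12 without the second library of day 7, while the share of all genes called went from 21.2% to 9.88%, 10.3% and 15.2%.

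Fasn was not called lower in whole nerve at any day. It stood at 166 and 194 CPM in uncrushed nerve, 249 and 179 CPM at day 3, 232 and 180.2 CPM at day 5 and 239 and 340.4 CPM at day 7. The libraries overlapped at days 3 and 5, where it was not called (0.18 ± 0.20 SE, adjusted p = 0.485 at day 3), and it was called higher at day 7 (0.59 ± 0.20 SE, adjusted p = 0.0417). That call was lost without the first uncrushed library (adjusted p = 0.177), without the second (adjusted p = 0.0572) and without the second library of day 7 (adjusted p = 0.274), and in DESeq2 (adjusted p = 0.113). Acly changed by -0.71 ± 0.12 at day 3 and was not called at day 7 (-0.15 ± 0.12), and Acaca changed by -0.93 ± 0.13 and -0.51 ± 0.13 at the same days, the latter not called without the second uncrushed library or either library of day 7 (adjusted p = 0.0575 to 0.0718).

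Adipocytes make fatty acids, and their markers stood in whole nerve but nearly not in Schwann cells. Adipoq, which encodes adiponectin, was at 229 to 742 CPM in whole nerve and at 0 to 0.207 CPM in Schwann cells, and Plin1, Cidec and Lep were at or below 0.160 CPM in all 8 Schwann cell libraries. Pnpla2, a lipase that other cells also use, made up nearly all of the summed adipocyte level of Schwann cells, at 25.2 to 35.8 CPM. In whole nerve the summed adipocyte markers were 912 and 502 CPM in uncrushed nerve, 566 and 429 CPM at day 3, 1211 and 838 CPM at day 5, and 774 and 749 CPM at day 7. Their part in the whole nerve levels of Fasn, Elovl5 and Acaca was not tested.

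**Figure D4:**
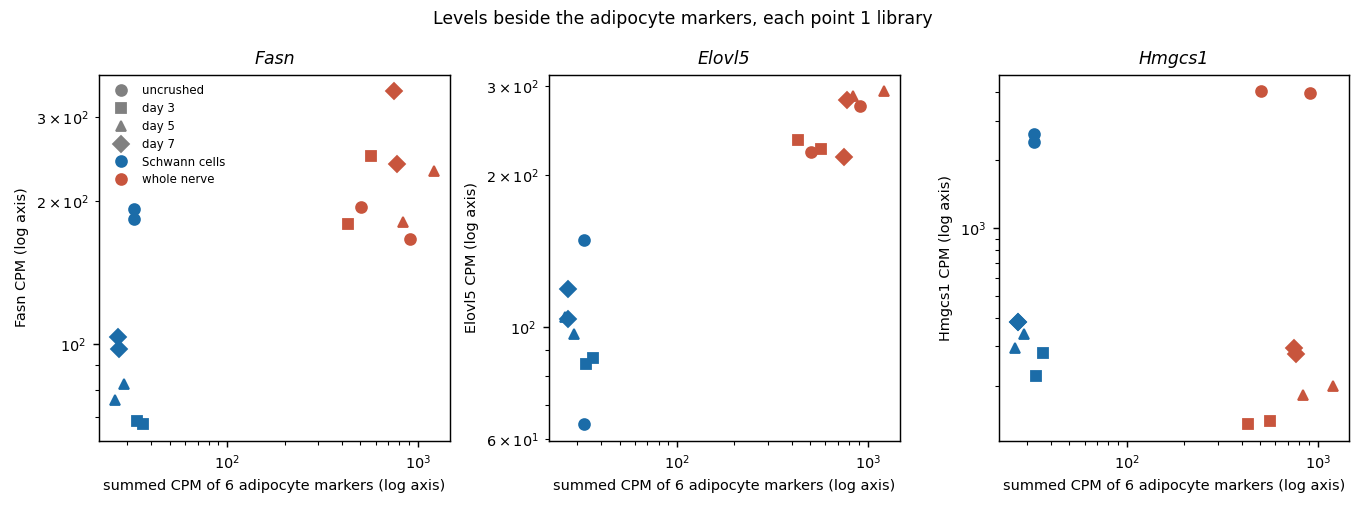
Levels of Fasn, Elovl5 and Hmgcs1 in each library against the summed level of 6 adipocyte markers, all in TMM-scaled CPM on log axes, with Schwann cells in blue and whole nerve in red and a shape for each time point. Whole nerve libraries lie to the right in all 3 panels; Fasn and Elovl5 are high in them also after crush, while Hmgcs1 is high in uncrushed samples of both kinds.

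Whether the effect of injury differed between Schwann cells and whole nerve was tested as a contrast of its own in a fit of all 16 libraries, with positive values where the gene fell less or rose more in Schwann cells. At day 3 the difference was positive in 17 members and negative in 6, beside 12.3% and 13.7% of 16829 genes, at day 5 it was positive in 20 and negative in 4 (12.6% and 14.9%), and at day 7 positive in 16 and negative in 6 (11.6% and 14.4%). The median difference of the members was 0.54, 0.88 and 0.63, and that of all genes -0.04, -0.04 and -0.07.

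The lowest adjusted p at day 3 was that of Ugt8, with a difference of 2.37 ± 0.15 SE, adjusted p = 7.93e-08. In the separate fits of each kind Ugt8 fell by 1.15 on the log2 scale in Schwann cells and fell by 3.62 in whole nerve. Hmgcs1 (1.54 ± 0.16 SE, adjusted p = 6.26e-06), Fa2h (2.43 ± 0.31 SE, adjusted p = 4.92e-05), Msmo1 (1.21 ± 0.16 SE, adjusted p = 8.09e-05) and Fads2 (1.29 ± 0.18 SE, adjusted p = 1.09e-04) followed. For Msmo1 the whole nerve levels were 291 and 344 CPM in uncrushed nerve and 29.8 and 31.1 CPM at day 3, beside 249.9 and 308 CPM and 61.2 and 62.7 CPM in Schwann cells. For Fads2 the whole nerve levels were 60.1 and 71.4 CPM and 80.4 and 74.1 CPM, which is a change of 0.17 ± 0.14 that was not called. The summed level of 6 Schwann cell markers, myelin protein genes among them, fell from 39068 and 46894.5 CPM to 3601 and 3324 CPM in whole nerve and from 16939 and 17775 CPM to 6466 and 6215 CPM in Schwann cells between uncrushed and day 3, and the part of this change in the differences was not tested.

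The 6 members with a negative difference at day 3, a lower fold change in Schwann cells than in whole nerve, were Fasn (-1.71 ± 0.25 SE, adjusted p = 1.48e-04), Insig1 (-1.32 ± 0.21), Lbr (-1.29 ± 0.29), Acss2 (-1.02 ± 0.19), Srebf2 (-0.75 ± 0.24) and Acly (-0.72 ± 0.17). Fasn, Insig1, Lbr and Acss2 had a negative difference at all 3 days. Insig1 stood at 297 and 266 CPM in uncrushed whole nerve and 95.8 and 72.9 CPM at day 3. The difference of Srebf2 was lost without the first library of any of the 4 groups compared (adjusted p = 0.0842 to 0.132), and that of Elovl7, positive at 1.49, without the second library of day 3 of Schwann cells (0.96, adjusted p = 0.25), without the second of whole nerve (1.09, adjusted p = 0.114) and without the first uncrushed Schwann cell library (1.33, adjusted p = 0.0575).

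**Figure D5:**
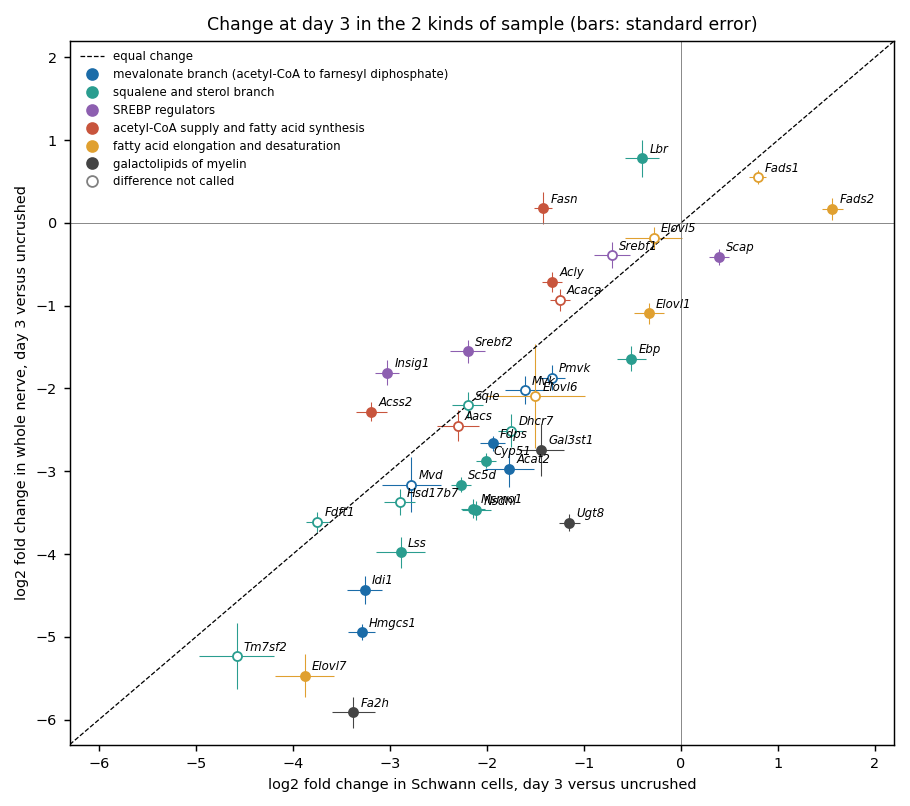
Log2 fold change of the 37 members at day 3 in Schwann cells (x axis) and whole nerve (y axis), with standard errors and colours for the 6 roles; the dashed line marks equal change. Filled points are the 23 members whose difference was called, 17 below the line and 6 above it.

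Before injury 21 members were lower and 6 higher in purified Schwann cells than in whole nerve, beside 35.3% and 29.1% of all genes. The 6 that were higher were Fads1 (1.02 ± 0.08 SE, adjusted p = 1.04e-07), Srebf2 (1.34 ± 0.17), Lbr (1.13 ± 0.22), Insig1 (0.93 ± 0.14), Acly (0.78 ± 0.12) and Fads2 (0.33 ± 0.13), the last not without the second Schwann cell library (adjusted p = 0.15) or the first of whole nerve (adjusted p = 0.288). Tm7sf2 (-1.74 ± 0.32), Fa2h (-1.59 ± 0.19), Nsdhl (-1.58 ± 0.14) and Ugt8 (-1.48 ± 0.10) had the lowest ratios. After crush 10 members were higher and 9 lower at day 3 (27.0% and 24.3%, beside 24.5% and 32.8% of all genes). At day 5, 16 were higher and 6 lower (43.2% and 16.2%, beside 23.2% and 28.4%). At day 7, 11 were higher and 9 lower (29.7% and 24.3%, beside 22.4% and 28.7%). The shares at days 3 and 7 lay near those of all genes. Ugt8, which was lower in Schwann cells before injury, was higher at day 3 (0.89 ± 0.10 SE, adjusted p = 4.65e-06), and so was Fa2h (0.84 ± 0.25), while Fasn, with no called difference before injury (0.06 ± 0.17), was lower at day 3 (-1.65 ± 0.18 SE, adjusted p = 1.99e-06). The call of Fa2h at day 3 was lost without the first Schwann cell library of that day (adjusted p = 0.06) and without the second of whole nerve (adjusted p = 0.0526).

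Levels were compared between genes in FPKM, which divides by transcript length. In uncrushed Schwann cells Hmgcs1 was the highest of the 37 at 827 ± 70.6 FPKM (SD, n = 2), followed by Ugt8 at 411 ± 5.37, Insig1 at 245 ± 26.0 and Cyp51 at 238 ± 17.0 FPKM, of which Insig1 and Cyp51 did not differ beyond their spread. Gal3st1 was the lowest at 3.06 ± 0.481 FPKM, with Srebf1 at 3.57 ± 0.523 FPKM within its spread. At day 3 the order changed, with Ugt8 at 178 ± 14.3 FPKM, Fads2 at 164 ± 4.65 FPKM and Fads1 at 150.3 ± 2.10 FPKM above Hmgcs1 at 81.3 ± 12.4 FPKM. In uncrushed whole nerve Hmgcs1 at 1068 ± 15.3 FPKM and Ugt8 at 928 ± 32.4 FPKM were the top 2 as well.

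Of 26 other genes of lipid synthesis, 12 were lower and 9 higher in Schwann cells at day 3 (46.2% and 34.6%, beside 25.7% and 26.9% of all genes), with a median log2 fold change of -0.18 beside 0.00 for all genes. Gpam, which starts glycerolipid synthesis, had the lowest p among those that fell (-1.84 ± 0.11 SE, adjusted p = 1.08e-06), and Hsd17b12, a reductase of very long chain elongation, among those that rose (1.38 ± 0.12 SE, adjusted p = 7.72e-06). In whole nerve 13 of the 26 were lower and 2 higher at day 3 (all genes 22.5% and 23.1%), and the desaturase Scd had the lowest p among those that rose (0.92 ± 0.27 SE, adjusted p = 0.018). Scd stood at 871 to 3564 CPM in whole nerve and 13.8 to 54.3 CPM in Schwann cells. Scd2, the desaturase of nervous tissue, was 5491 and 6134 CPM in uncrushed Schwann cells and 9639 and 9461 CPM at day 3, a rise of 0.75 ± 0.10 SE, adjusted p = 2.28e-04, while in whole nerve it fell (-1.58 ± 0.09). At day 7, 9 of the 26 were lower and 8 higher in Schwann cells (34.6% and 30.8%, beside 21.9% and 25% of all genes), and 10 were lower and 3 higher in whole nerve (all genes 15.9% and 15.4%).

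Some estimates rest on reads that several records share. The counts of Acat2, Lss, Srebf1, Insig1 and Elovl6 among the members, and of Scd, Scd2 and Tecr among the other genes, were not whole in all 16 libraries, so the authors' counting divided reads between these genes and other records, and their values are uncertain to that extent.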

How the data were processed

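RNA-seq libraries of purified Schwann cells and whole sciatic nerve were made with the Ovation RNA-seq system V2. Per the labels and the study's methods, the authors mapped reads with STAR to Rnor_6.0 and deposited RSEM expected counts, FPKM and TPM for each gene in each library. Whether counting used strand is not given in the sources used here.

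Expected counts were rounded and tested with edgeR 4.0.16 (R 4.3.3; filterByExpr, TMM, quasi-likelihood) over all genes that passed the filter: 8 libraries of one kind for changes over time, and all 16 for comparisons of both kinds. DESeq2 1.42.0, other scalings, filters, fits, a replicate block and leave-one-out fits were the alternatives. The fits were checked on simulated data with 200 changed genes. FPKM were used for levels between genes, and TPM as an alternative. Replicates differed beyond sampling noise (chi-square per degree of freedom 8.55 to 30.0).

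The members and lists were chosen with earlier results of these data known. Values by library, in the groups a sentence compares, are given for the member with the lowest adjusted p of each role and direction at day 3 in Schwann cells, for members that moved against their role, and for the 5 lowest adjusted p of the difference between both kinds at day 3. Other members with values by library (Idi1, Tm7sf2, Srebf2, Acly, Elovl5, Elovl1, Gal3st1) were chosen after their values were seen. The other genes of lipid synthesis enter as counts, with values for those named by lowest adjusted p and for Scd2, and 1 result of this rule is not reported here.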

Additional observations from a re-analysis of the deposited data

Results flagged for a closer look

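The effect of crush differed between Schwann cells and whole nerve for the members named here, by edgeR's test of the difference itself in the fit of all 16 libraries (adjusted p below 0.05). Each value is the log2 fold change in Schwann cells minus that in whole nerve.

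At day 3 the difference was negative for Fasn -1.71, Insig1 -1.32, Lbr -1.29, Acss2 -1.02, Srebf2 -0.75 and Acly -0.72. It was positive for Fa2h 2.43, Ugt8 2.37, Hmgcs1 1.54, Elovl7 1.49, Fads2 1.29, Nsdhl 1.26, Msmo1 1.21, Gal3st1 1.20, Acat2 1.10, Idi1 1.07, Ebp 1.02, Lss 0.99, Sc5d 0.80, Cyp51 0.76, Scap 0.69, Elovl1 0.66 and Fdps 0.62.

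At day 5 the difference was negative for Insig1 -2.19, Fasn -1.44, Lbr -1.26 and Acss2 -0.92. It was positive for Elovl6 3.34, Ugt8 2.00, Fa2h 1.96, Elovl7 1.94, Lss 1.80, Idi1 1.70, Mvd 1.59, Nsdhl 1.57, Hmgcs1 1.41, Pmvk 1.24, Elovl1 1.23, Acat2 1.17, Msmo1 1.09, Ebp 1.02, Cyp51 0.97, Sc5d 0.89, Scap 0.88, Dhcr7 0.72, Fads2 0.71 and Fdps 0.63.

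At day 7 the difference was negative for Insig1 -1.73, Lbr -1.69, Fasn -1.59, Acss2 -0.91, Acly -0.69 and Acaca -0.64. It was positive for Ugt8 2.02, Fa2h 1.84, Elovl7 1.68, Lss 1.13, Hmgcs1 1.10, Nsdhl 1.04, Fads2 0.99, Ebp 0.98, Elovl1 0.97, Hsd17b7 0.82, Scap 0.77, Dhcr7 0.75, Msmo1 0.67, Cyp51 0.63, Sc5d 0.63 and Pmvk 0.61.

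Ugt8 and Fa2h had a positive difference at all 3 days, while both were lower after crush in each kind of sample at day 3. Insig1 and Fasn had a negative one at all 3 days, and Insig1 fell in both kinds while Fasn was called lower in Schwann cells only. The difference of Elovl6 at day 5 was lost without the first uncrushed library or the first of day 5 of Schwann cells and without the second uncrushed or the first of day 5 of whole nerve (adjusted p = 0.0682 to 0.179). The differences of Lss and Gal3st1 at day 3 were each lost without any 1 of the 8 libraries compared other than the second uncrushed one of Schwann cells (Lss adjusted p = 0.0551 to 0.116, Gal3st1 adjusted p = 0.053 to 0.124), and that of Elovl1 without any other than the first uncrushed one of whole nerve (adjusted p = 0.0538 to 0.15). That of Pmvk at day 7 was lost without any 1 of the 8 (adjusted p = 0.0531 to 0.0907).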

How the results depend on the processing

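Counts of called members against uncrushed samples stayed within 1.5 times their values (34, 32 and 33 in Schwann cells, 33, 33 and 30 in whole nerve) under all alternatives tried. Counts between crushed days moved more. Without the filter on low counts 11 members were called between days 3 and 5 of Schwann cells and 8 between days 5 and 7, and DESeq2 called 8 between days 5 and 7, beside 12.5%, 4.79% and 4.3% of all genes (12.5% and 1.95% with the filter in edgeR). With at least a 2-fold change also required, the counts were 1 (day 5 against 3), 2 (day 7 against 5) and 7 (day 7 against 3) in Schwann cells and 6 (day 7 against 3) in whole nerve. For Schwann cells against whole nerve they were 11 uncrushed, 7 at day 3, 8 at day 5 and 4 at day 7, and for the difference of the injury effect 15 at day 3 and 9 at day 7. The share of all genes that met the 2-fold requirement was not counted, so these counts cannot be set against it. Leaving out 1 library gave 0 to 3 for day 5 against 3, 1 to 4 for day 7 against 5 and 11 to 18 for day 7 against 3 in Schwann cells, and 8 to 14 for day 7 against 3 in whole nerve. TPM in place of FPKM moved the rank of 4 members.

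Of 5109 values of 430 member results under an alternative, 4751 kept direction and call, 321 lost the call, 15 gained one and 22 changed sign. At least 1 alternative ended the call of 86 of the 430. Leaving out 1 library lost 4 to 26 calls, the most without either library of day 3 of Schwann cells (26 each) and without their first of day 7 (24), while DESeq2 lost 21, upper quartile scaling 10, no filter 9 and the replicate block 4. Lbr at day 3 in Schwann cells was called with upper quartile scaling (-0.48) and with at least 10 counts in every library (-0.45). Upper quartile scaling moved the median of all genes in Schwann cells against whole nerve from -0.03 to 0.11 at day 5. Sign changes were in changes of members not called. In the fit of all 16 libraries Elovl5 and Fads2 in whole nerve at day 7 were each at 0.01. Leaving out 1 library gave -0.76 to 0.42, -0.54 to 0.65 and -0.39 to 0.80 for Elovl5 (days 3, 5 and 7 of Schwann cells), -0.24 to 0.16 for Srebf1 at day 5, and -0.74 to 0.41 for Elovl6 and 0.00 to 0.34 for Gal3st1 at day 7. In whole nerve it gave -0.06 to 0.40 and -0.08 to 0.27 for Fasn at days 3 and 5, -0.20 to 0.44 for Lbr at day 5, -0.01 to 0.29 and -0.26 to 0.10 for Elovl5 at days 5 and 7, and -0.32 to 0.02 for Acly and -0.26 to 0.11 for Fads2 at day 7. The cause of these changes was not tested, beyond the fewer libraries or genes that an alternative holds.

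Same-numbered libraries did not deviate together over all genes (correlations -0.0734 to 0.121 over 28 pairs of groups, 1 of them above 0.1). The labels tie them only by that number, and these correlations cannot show whether they shared animals or preparation. With the replicate number as a block 34, 32 and 33 members were called in purified cells and 34, 33 and 30 in whole nerve in the order of the days, 18 between days 3 and 7 in Schwann cells, and 23 for the difference at day 3. With this block 51.2%, 52.8% and 45.2% of all genes were called in Schwann cells at the 3 days. Between days 3 and 7 of Schwann cells the share was 19.1%. The lowest total was 10555067 counts and the lowest count of a member 6 (Tm7sf2). How small a change could be detected at such counts was not tested.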
